A study of Mus musculus with 11 samples.

Results

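The genes of the bone morphogenetic protein (BMP) and transforming growth factor beta (TGF-beta) pathway were followed through 4 days of differentiation of cultured mouse neural stem cells. They were taken by symbol: the BMP, GDF, TGF-beta and inhibin/activin ligand genes, their receptors, the Smad genes, secreted binding proteins, latent TGF-beta binding proteins, Skil, Bambi, Tgfbi and Id1 to Id4. The deposited table listed 68 such genes among 37991, and 46 of them passed the filter on low values (at least 1 CPM in at least 2 libraries), as did 13342 genes in all. CPM is a gene's number of reads scaled to a fixed library total. Bmp1 matched by name but encodes a metalloprotease that cuts procollagen and the BMP antagonist chordin, not a ligand.

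The cultures came from the frontal cortex of C57BL/6J embryos at E14.5. Group NSC (3 libraries) was taken at day 0 from the proliferation medium. The other cultures were sampled on day 4 after a change of medium. Group Astrocyte (3 libraries) had received DMEM with 1% N-2 supplement, 1% fetal bovine serum and 2 mM GlutaMAX-1. Group Neuron (3 libraries) had received Neurobasal with GlutaMAX-1 (2 mM) and B-27 (2%). Group Oligodendrocyte (2 libraries) had received the same Neuron formulation plus 30 ng/mL of T3, a thyroid hormone. All groups carried the same wild-type strain background, and the group names stand for the medium, not for sorted cells. No group was kept in proliferation medium to day 4, so time in culture and the change of medium cannot be told apart in any comparison with NSC. The series calls the libraries biological replicates. Whether each came from its own culture or litter is not given in the sources used here, so p-values measure only the spread between these libraries.

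The step between low CPM values put the depth at 49.3 to 66.2 M reads per library, with 1 read worth 0.0151 to 0.0203 CPM. The CPM of all listed genes summed to 74.95% to 76.94% of 1 M in NSC and 79.72% to 80.01% in Astrocyte. In Neuron they summed to 76.11% to 78.01% and in Oligodendrocyte to 80.07% to 80.25%. Marker lists showed mixed cultures: the 7 astrocyte markers summed to 1533 to 1608 CPM in NSC, 13940 to 15380 in Astrocyte, 8048 to 9082 in Neuron and 3058 to 3440 in Oligodendrocyte. Gfap, at 7030 to 8707 CPM in Astrocyte and 2449 to 2828 in Neuron, made up much of that gap: in Astrocyte vs Neuron 3 of the 7 were called higher (Gfap, Aqp4 and Gja1) and 4 lower (Aldoc, S100b, Slc1a3 and Aldh1l1). The 6 mature oligodendrocyte markers summed to 67.91 to 75.72, 407.1 to 518.2, 2505 to 2680 and 2406 to 2755 CPM in the same order, and the 5 cycling markers to 1914 to 2023, 65.76 to 76.35, 31.42 to 49.02 and 78.19 to 80.25 CPM. The 6 neuron markers summed to 844.4 to 934.0, 759.7 to 791.1, 888.8 to 1165 and 785.7 to 795.6 CPM. Map2 made up nearly all of that in NSC and most of it in each day 4 group. Of the 5 tested, 4 were called higher than NSC in each medium. Among them was Dcx, at 1.33 to 2.02 CPM in NSC and 85.17 to 177.1 CPM in the day 4 libraries. The other, Map2, averaged 885.3 CPM in NSC. It was called lower in Astrocyte (604.3 CPM) and Oligodendrocyte (653.9 CPM) and was not called in Neuron (865.6 CPM). In such bulk libraries, fewer cells of a type and less RNA per cell cannot be told apart. Microglia markers (7 of 7 listed) summed to at most 1.32 CPM, with Tmem119 at 0 in all NSC and Astrocyte libraries. Endothelial markers (6 of 6) summed to at most 7.37 CPM, with Cdh5 at 0 in all day 4 libraries, and pericyte markers (4 of 4) to at most 1.56 CPM. The 7 mesenchymal markers summed to 8.18 to 10.85 CPM in NSC, 80.97 to 89.35 in Astrocyte, 38.29 to 44.92 in Neuron and 18.99 to 19.13 in Oligodendrocyte. Pdgfrb and Acta2 made up most of that, while Col1a1, Col1a2, Col3a1, Lum and Dcn were each below 1 CPM in every library.

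Ligands of this family bind a pair of type II and a pair of type I receptor kinases, and the type I receptor phosphorylates receptor-activated Smads, which join Smad4 and enter the nucleus. BMPs act mainly through Smad1, Smad5 and Smad9, and TGF-betas and activins through Smad2 and Smad3. Smad6, Smad7 and Skil restrain the pathway, and the Id genes, whose products block basic helix-loop-helix factors, are standard BMP targets. In the cortex, BMP signalling is known for promoting astrocyte fate and opposing oligodendrocyte fate, and noggin and chordin keep BMPs from their receptors.

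Every comparison was made with limma on log2(CPM + 1) over all 13342 genes, and a gene was called at a Benjamini-Hochberg adjusted p under 0.05. Of the 46 pathway genes tested, 37 were called in Astrocyte vs NSC (23 higher, 14 lower), where 83.6% of all genes were called. In Neuron vs NSC 36 were called (23 higher, 13 lower; background 83.1%), and in Oligodendrocyte vs NSC 39 (25 higher, 14 lower; background 80.2%). These shares lie near the background and show nothing about the pathway. Calls of at least 2-fold took 23, 19 and 21 of the 46 genes, against 33.7%, 31.8% and 32% of all genes. Between media, 38 pathway genes were called in Astrocyte vs Neuron (21 higher, 17 lower; background 62.2%), 34 in Oligodendrocyte vs Neuron (19 higher, 15 lower; background 67.5%) and 35 in Oligodendrocyte vs Astrocyte (17 higher, 18 lower; background 52.2%). At least 2-fold, these numbers were 5, 8 and 11, against 9.34%, 12.5% and 7.94% of all genes. In the last of these comparisons the 17 higher pathway genes were 37% of those tested, against 28.7% of all genes, and the 18 lower were 39.1%, against 23.5%. The libraries of the 2 groups did not overlap for 36, 37 and 43 pathway genes in the comparisons of Astrocyte, Neuron and Oligodendrocyte with NSC, against 86.2%, 83.2% and 89.3% of all genes. In Astrocyte vs Neuron that held for 38 (background 63%), in Oligodendrocyte vs Neuron for 37 (background 75.7%) and in Oligodendrocyte vs Astrocyte for 39 (background 71.7%).

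The median absolute log2 fold change of the pathway genes was 0.99, 0.77 and 0.93 in the 3 comparisons with NSC, where it was 0.66, 0.65 and 0.64 over all genes. Their signed medians were 0.17, 0.16 and 0.47, beside 0.15, 0.06 and 0.19 over all genes. Median-of-ratios scaling, which centres the libraries, took the medians over all genes to 0.01, 0.02 and 0.01 and those of the pathway genes to 0.07, 0.11 and 0.29. Over all genes, 64.7% of the calls in Astrocyte vs Neuron and 65.1% of those in Oligodendrocyte vs Neuron were higher, and with median-of-ratios scaling 51.9% and 51.5%. For the pathway genes that scaling gave 17 higher and 18 lower in the first of these and 16 higher and 17 lower in the second. With quantile normalization the share of higher calls over all genes in Oligodendrocyte vs NSC fell from 59.9% to 47.7%, and the pathway genes split into 22 higher and 18 lower. Called higher in all 3 media were 17 pathway genes (37%, against 34.4% of all genes), and called lower in all 3 were 10 (21.7%, against 25.9%). The 3 comparisons share their NSC libraries, so these counts are not independent of each other.

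**Figure D1:**
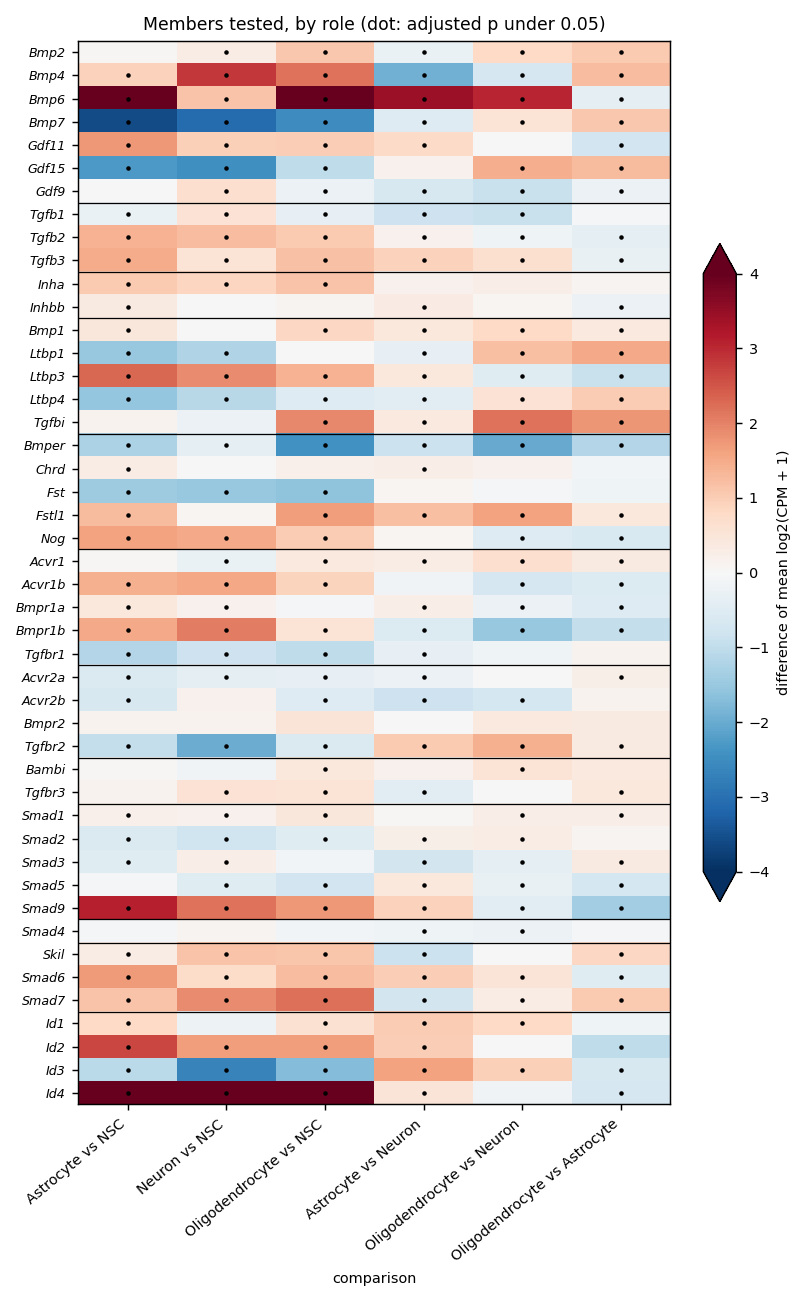
Difference of mean log2(CPM + 1) for the 46 pathway genes tested (rows, ordered by role, with lines between roles) in 6 comparisons (columns). Red is higher and blue lower in the first-named group, dots mark an adjusted p under 0.05, and colours saturate at 4, which Id4 (5.83 in Astrocyte vs NSC) and Bmp6 (4.55) exceed.

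The BMP ligand genes changed places between day 0 and day 4. Bmp7 was the BMP ligand gene of the stem cells and fell in every medium, while Bmp6 rose in Astrocyte and Oligodendrocyte and Bmp4 rose most in Neuron. These 3 genes encode ligands of the BMP type receptors.

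Bmp7 (ENSMUSG00000008999, mm9 chromosome 2, 172693513 to 172765822, minus strand) stood at 42.3, 41.59 and 45.48 CPM in the NSC libraries. It stood at 2.71, 2.58 and 2.73 CPM in Astrocyte, 4.2, 4.11 and 4.49 CPM in Neuron, and 6.32 and 7.08 CPM in Oligodendrocyte. The 4 groups did not overlap, and NSC was far above the rest. On the log2(CPM + 1) scale Bmp7 changed by -3.59 in Astrocyte (SE 0.075, adjusted p 6.61e-14), by -3.07 in Neuron (SE 0.075, adjusted p 2.41e-13) and by -2.52 in Oligodendrocyte (SE 0.084, adjusted p 6.51e-12). The mean in Oligodendrocyte was 2.51 times that in Astrocyte (log2 fold change 1.07, adjusted p 2.74e-07).

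Bmp6 (ENSMUSG00000039004, chromosome 13, 38436995 to 38592183, plus strand) was at 0.08, 0.05 and 0.02 CPM in NSC, a level of a few reads. In Astrocyte the libraries read 22, 23.41 and 25.76 CPM, in Oligodendrocyte 18.1 and 18.54 CPM, and in Neuron 1.14, 1.28 and 1.59 CPM. The gene was thus high in Astrocyte and Oligodendrocyte and low, though above NSC, in Neuron. The differences from NSC on the log2(CPM + 1) scale, whose size for such low values depends on the pseudocount, were 4.55 (SE 0.091, adjusted p 4.47e-14) in Astrocyte, 4.20 (SE 0.102, adjusted p 3.86e-13) in Oligodendrocyte and 1.15 (SE 0.091, adjusted p 4.15e-08) in Neuron. With added T3, in Oligodendrocyte, the mean was 13.7 times that of Neuron (log2 fold change 3.05, SE 0.102, adjusted p 6.85e-11). Astrocyte exceeded Oligodendrocyte by only 0.35 on the log2 scale (adjusted p 0.0106), a call lost with a pseudocount of 0.1 (adjusted p 0.11) and without Oligodendrocyte replicate 1 (adjusted p 0.0624). The Bmp6 locus overlaps Txndc5 on the opposite strand, which averaged 108 CPM in Neuron, 125 in Oligodendrocyte and 135 in NSC, with its highest mean in Astrocyte.

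Bmp4 had 0, 0.02 and 0.03 CPM in NSC, values of 0 to 2 reads. The Neuron libraries averaged 6.27 ± 0.149 CPM (SD, n = 3), the Oligodendrocyte libraries 3.53 ± 0.0566 (SD, n = 2) and the Astrocyte libraries 0.917 ± 0.163 (SD, n = 3). The order of the day 4 media was the reverse of that for Bmp6. Bmp4 was lower in Astrocyte than in Neuron (-1.93, SE 0.083, adjusted p 6.74e-10) and lower in Oligodendrocyte than in Neuron (-0.68, SE 0.092, adjusted p 2.33e-05). Bmp2 reached 1 CPM only in Oligodendrocyte, at 1.12 and 1.4 CPM, and was called higher there than in each other group. Bmp5, Bmp8a, Bmp8b and Bmp15 stayed under 0.3 CPM in every library. Bmp10 was at 0 throughout, which at 3 reads allows up to 0.0453 to 0.0609 CPM per library, counting error only.

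Among the growth and differentiation factors, Gdf11 (ENSMUSG00000025352, chromosome 10, 128319351 to 128328774, minus strand), a ligand that signals through the activin receptors and Smad2 and Smad3, rose in all 3 media. It read 26.83, 26.77 and 28.32 CPM in NSC, 94.37, 95.78 and 89.85 in Astrocyte, 54.65, 49.31 and 58.85 in Neuron, and 56.47 and 52.16 in Oligodendrocyte. Astrocyte stood above every other library, and Neuron and Oligodendrocyte overlapped (log2 fold change 0.00, SE 0.077, adjusted p 0.968). Over NSC the log2 fold changes were 1.74, 0.96 and 0.97 (adjusted p 2.47e-11, 1.42e-08 and 5.29e-08). Gdf15, a stress-induced member of the family, went the other way: the NSC libraries averaged 5.26 ± 0.32 CPM, those of Astrocyte 0.28 ± 0.0265 and those of Neuron 0.147 ± 0.0153 (SD, n = 3). Oligodendrocyte kept 2.11 ± 0.0848 CPM (SD, n = 2), 1.44 above Neuron on the log2 scale (SE 0.087, adjusted p 1.18e-08). Gdf1 was at 0 in every library, but its deposited model overlaps Lass1 on the same strand, which had 4.78 to 30 CPM. How reads of a shared stretch were counted is not given in the sources used here, so the 0 is no measure of Gdf1. Gdf9, known as an oocyte growth factor, was at 3.06 ± 0.125 CPM in Neuron against 1.55 ± 0.15 CPM at day 0 (SD, n = 3; log2 fold change 0.67, adjusted p 4.2e-06). Gdf2, Gdf3, Gdf5, Gdf6, Gdf7 and Gdf10 did not pass the filter and peaked at 0.02 to 0.8 CPM, and Bmp3 did not pass it with a highest value of 1.12 CPM.

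Of the TGF-beta ligand genes, Tgfb2 and Tgfb3 were higher in all 3 media than in NSC, the rise of Tgfb3 in Neuron not with quantile normalization. Tgfb2 (ENSMUSG00000039239, chromosome 1, 188447065 to 188529871, minus strand) read 22.24, 24.91 and 24.48 CPM in NSC, 64.72, 64.21 and 64.74 in Astrocyte, 57.92, 53.46 and 59.62 in Neuron, and 52.03 and 48.96 in Oligodendrocyte. Tgfb2 rose by 1.40 in Astrocyte (SE 0.063, adjusted p 9.98e-11), by 1.22 in Neuron (SE 0.063, adjusted p 4.63e-10) and by 1.05 in Oligodendrocyte (SE 0.071, adjusted p 8.96e-09). All day 4 libraries lay above NSC and within 48.96 to 64.74 CPM. Astrocyte vs Neuron differed by 0.18 (adjusted p 0.0261), a call lost with median-of-ratios scaling (0.07, adjusted p 0.305). Oligodendrocyte vs Neuron differed by -0.17 (adjusted p 0.0473), a call lost in most of the alternatives tried, among them the fit of those groups alone (adjusted p 0.12).

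Tgfb3 (ENSMUSG00000021253, chromosome 12, 87397694 to 87419991, minus strand) went from 3.07, 2.86 and 3.05 CPM in NSC to 10.91, 10.38 and 9.13 in Astrocyte, 4.53, 4.56 and 5.44 in Neuron, and 7.55 and 8.46 in Oligodendrocyte. No groups overlapped. Astrocyte had 3.39 times the NSC mean (log2 fold change 1.48, SE 0.092, adjusted p 2.89e-09) and Neuron 1.62 times (0.55, SE 0.092, adjusted p 8.45e-05) with a value of 0.17 under quantile normalization (adjusted p 0.105). The locus overlaps Ttll5 on the opposite strand, at 14 to 47.7 CPM, and whether the counting used the strand is not given in the sources used here. Tgfb1 stayed near or below 1 CPM outside Neuron. The Neuron libraries averaged 1.44 ± 0.14 CPM, those of NSC 0.63 ± 0.0458 and those of Astrocyte 0.363 ± 0.0814 (SD, n = 3), with 0.305 ± 0.0495 for Oligodendrocyte (SD, n = 2).

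**Figure D2:**
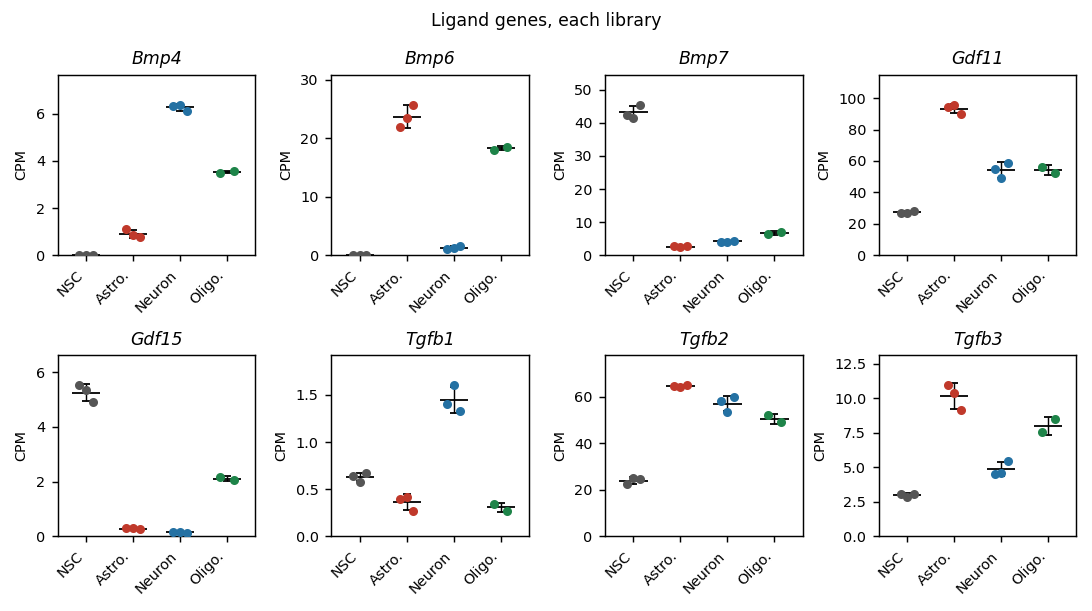
CPM of 8 ligand genes in each library (points) of the 4 groups, with the group mean (line) and SD (bars); each panel has its own axis from 0. Bmp7 and Gdf15 are highest in NSC, Bmp6 is high in Astrocyte and Oligodendrocyte only, and Bmp4 is highest in Neuron.

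Of the activin and inhibin subunits, Inhbb, which forms activin B, was steady at 20.88 to 29.52 CPM in the 11 libraries and was called higher in Astrocyte vs NSC (log2 fold change 0.35, adjusted p 0.000283). Inha, the subunit that makes an inhibin, rose in all 3 media. The NSC libraries averaged 0.42 ± 0.145 CPM, those of Astrocyte 1.92 ± 0.393 and those of Neuron 1.59 ± 0.0551 (SD, n = 3), with 2.15 ± 0.156 for Oligodendrocyte (SD, n = 2). Inhba, Inhbc and Inhbe did not pass the filter and peaked at 0.69, 0.02 and 0.02 CPM.

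TGF-beta is secreted bound to latent TGF-beta binding proteins (LTBPs), which hold it in the matrix. The LTBP genes moved in opposite directions. Ltbp3 (ENSMUSG00000024940, chromosome 19, 5740904 to 5758532, plus strand) read 24.53, 25.45 and 25.93 CPM in NSC, 132.8, 126.3 and 122.8 in Astrocyte, 92.52, 93.86 and 101.0 in Neuron, and 70.2 and 66.66 in Oligodendrocyte. The groups formed 4 separate levels, and the rise over NSC was 2.29 in Astrocyte (SE 0.058, adjusted p 2.91e-13), 1.88 in Neuron (SE 0.058, adjusted p 2.17e-12) and 1.40 in Oligodendrocyte (SE 0.065, adjusted p 1.65e-10).

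Ltbp4 (ENSMUSG00000040488, chromosome 7, 28090155 to 28122711, minus strand) fell instead, from 20.06, 20.15 and 21.2 CPM in NSC to 6.23, 6.83 and 5.86 in Astrocyte, 10.27, 7.08 and 9.54 in Neuron, and 13.77 and 13.93 in Oligodendrocyte. It was 1.56 lower on the log2 scale in Astrocyte (adjusted p 9.79e-09), and Oligodendrocyte had 2.2 times the Astrocyte mean (log2 fold change 1.03, SE 0.121, adjusted p 1.16e-05). Ltbp1 had a like pattern at lower values: the NSC libraries averaged 8.87 ± 0.798 CPM, those of Astrocyte 2.4 ± 0.0379 and those of Neuron 3.32 ± 0.734 (SD, n = 3). Oligodendrocyte averaged 8.78 ± 0.163 CPM (SD, n = 2), where the difference from NSC was -0.01 (SE 0.128, adjusted p 0.94). Oligodendrocyte thus held more Ltbp1 and Ltbp4 RNA than either other day 4 culture. Ltbp2 did not pass the filter (highest value 0.54 CPM). Tgfbi, a matrix protein named for its induction by TGF-beta, was at 3.77 and 4.15 CPM in Oligodendrocyte and under 1 CPM in each other library (log2 fold change over Neuron 2.16, SE 0.136, adjusted p 1.74e-08). Bmp1 rose in Oligodendrocyte to 132.4 and 137.2 CPM from 72.55, 74.08 and 79.88 in NSC (log2 fold change 0.83, adjusted p 8.01e-08) and did not differ detectably between Neuron and NSC (0.02, SE 0.062, adjusted p 0.785).

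Secreted binding proteins also split. Bmper (ENSMUSG00000031963, chromosome 9, 23027520 to 23289646, plus strand), which binds BMPs outside the cell, read 21.73, 24.11 and 22.59 CPM in NSC, 16.88, 15.62 and 18.55 in Neuron, 10.37, 7.92 and 8.59 in Astrocyte, and 3.58 and 3.25 in Oligodendrocyte. Each group lay below the one before, without overlap. The NSC to Oligodendrocyte step was a fall by 2.43 on the log2 scale (SE 0.109, adjusted p 1.19e-10), and Oligodendrocyte was 2.03 below Neuron (log2 fold change -2.03, SE 0.109, adjusted p 3.67e-09).

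Fstl1 (ENSMUSG00000022816, chromosome 16, 37776959 to 37836600, plus strand), a secreted follistatin-like glycoprotein, went the other way. It read 36.69, 37.25 and 39.04 CPM in NSC and 37.12, 37.63 and 44.19 in Neuron, which overlapped (log2 fold change 0.07, SE 0.075, adjusted p 0.405). In Astrocyte it read 91, 91.05 and 91.71, and in Oligodendrocyte 131.9 and 113.6. The rise over NSC was 1.26 in Astrocyte (SE 0.075, adjusted p 1.86e-09) and 1.68 in Oligodendrocyte (SE 0.084, adjusted p 3.76e-10). Like Bmp6, Fstl1 was higher in Astrocyte and in Oligodendrocyte than in Neuron. The Astrocyte medium differs from that of Neuron in base and supplement as well as in serum, so their parts cannot be told apart.

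Noggin RNA (Nog) rose in all 3 media. The NSC libraries averaged 0.327 ± 0.0252 CPM, those of Astrocyte 3.05 ± 0.556 and those of Neuron 2.81 ± 0.0808 (SD, n = 3), with 1.65 ± 0.0848 for Oligodendrocyte (SD, n = 2) and log2 fold changes of 1.60, 1.52 and 1.00 (adjusted p 2.8e-09, 5.24e-09 and 1.67e-06). Follistatin RNA (Fst), whose product binds activins, fell in all 3 media. The day 0 libraries averaged 2.62 ± 0.183 CPM, those of Astrocyte 0.353 ± 0.0493 and those of Neuron 0.277 ± 0.106 (SD, n = 3), with 0.195 ± 0.0354 for Oligodendrocyte (SD, n = 2). Chordin RNA (Chrd) stayed between 2.54 and 4.36 CPM. It was called higher in Astrocyte than in NSC (0.30, adjusted p 0.0169) but lower with quantile normalization (-0.32, adjusted p 0.013). Grem1, another BMP antagonist, stayed at or below 0.46 CPM and Fstl3 at or below 1 CPM, and neither passed the filter.

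Among the receptors, Bmpr1b and Acvr1b rose in all 3 media, and Tgfbr1 and Tgfbr2 fell. Bmpr1b (ENSMUSG00000052430, chromosome 3, 141500100 to 141832389, minus strand), a BMP type I receptor, read 37.16, 37.88 and 34.78 CPM in NSC. It was at 153.3, 159.3 and 154.9 in Neuron, 109.7, 106.1 and 99.61 in Astrocyte, and 58.46 and 49.26 in Oligodendrocyte. The 4 groups did not overlap and Neuron was highest, with 4.26 times the NSC mean (log2 fold change 2.06, SE 0.069, adjusted p 4.72e-12). Oligodendrocyte, whose medium adds T3 to that of Neuron, was lower than Neuron by 1.52 on the log2 scale (log2 fold change -1.52, SE 0.077, adjusted p 2.23e-09). Bmpr1a, the other BMP type I receptor gene, moved little, between 170.7 and 260.9 CPM over the 11 libraries, and its largest difference was -0.53 in Oligodendrocyte vs Astrocyte (adjusted p 5.33e-05).

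Acvr1b (ENSMUSG00000000532, chromosome 15, 101004556 to 101043032, plus strand), the activin type I receptor also known as ALK4, rose in all 3 media. It read 11.11, 11.26 and 9.2 CPM in NSC, 30.68, 29.63 and 29.35 in Astrocyte, 35.21, 28.3 and 35.46 in Neuron, and 19.55 and 20.91 in Oligodendrocyte. Astrocyte and Neuron overlapped, and the log2 fold changes over NSC were 1.43, 1.56 and 0.89 (adjusted p 6.11e-09, 2.52e-09 and 3.6e-06). Acvr1, a type I receptor shared by BMPs, remained between 11.4 and 19.64 CPM.

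Both TGF-beta receptor genes fell while Tgfb2 and Tgfb3 rose. Tgfbr1 (ENSMUSG00000007613, chromosome 4, 47366094 to 47427803, plus strand) read 72.2, 73.38 and 65.71 CPM in NSC, 30.42, 30.32 and 31.53 in Astrocyte, 40.36, 35.23 and 41.11 in Neuron, and 34.05 and 34.19 in Oligodendrocyte. All day 4 libraries lay well below NSC, with differences of -1.17 in Astrocyte (SE 0.069, adjusted p 1.7e-09), -0.84 in Neuron (SE 0.069, adjusted p 6.05e-08) and -1.02 in Oligodendrocyte (SE 0.077, adjusted p 2.96e-08) on the log2 scale. Tgfbr2 (ENSMUSG00000032440, chromosome 9, 115993415 to 116084383, minus strand), the type II receptor that binds TGF-beta, read 20.31, 23.25 and 21.21 CPM in NSC and only 4.67, 4.32 and 4.96 in Neuron. Astrocyte read 10.32, 11.99 and 10.03 CPM and Oligodendrocyte 13.66 and 14.28 CPM. The 4 groups were separate, and Neuron fell by 2.00 (SE 0.086, adjusted p 6.14e-11). Oligodendrocyte had 3 times the Neuron mean (log2 fold change 1.41, SE 0.096, adjusted p 3.61e-08) and Astrocyte 2.32 times (1.06, SE 0.086, adjusted p 2.05e-07). The cycling markers, which fell from NSC to every day 4 group, moved with Bmp7, Tgfbr1 and Tgfbr2 between day 0 and day 4, and their part in these falls was not tested.

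Of the other type II receptors, Acvr2a fell in all 3 media (log2 fold changes -0.58, -0.35 and -0.34, adjusted p 4.18e-06, 0.000441 and 0.00154), from 35.34 ± 2.89 CPM in NSC (SD, n = 3). Acvr2b stayed between 1.16 and 4.33 CPM. The co-receptor Tgfbr3, or betaglycan, which presents TGF-beta to its receptors, was at 1.11 to 2.78 CPM, and the decoy receptor Bambi at 1.59 to 3.71 CPM. Bmpr2, the BMP type II receptor, was called in no comparison. Its libraries were uneven: 45.05, 52.15 and 28.88 CPM in NSC, 49.49, 49.68 and 36.61 in Astrocyte, 59.48, 28.17 and 52.83 in Neuron, and 54.49 and 62.23 in Oligodendrocyte. NSC replicate 3 and Neuron replicate 2 were low for their groups. Without Neuron replicate 2, Bmpr2 was called higher in Neuron (log2 fold change 0.45, adjusted p 0.0249) and in Oligodendrocyte (0.50, adjusted p 0.0137) than in NSC, where with all libraries the values were 0.13 (adjusted p 0.646) and 0.50 (adjusted p 0.111). That library also had the highest share of mitochondrial reads, 8.91%, where the others had 4.54% to 7.93%. Its part in the Bmpr2 value was not tested. Acvrl1, a receptor mainly of endothelial cells, was at or below 0.16 CPM and Acvr1c at or below 0.62 CPM.

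**Figure D3:**
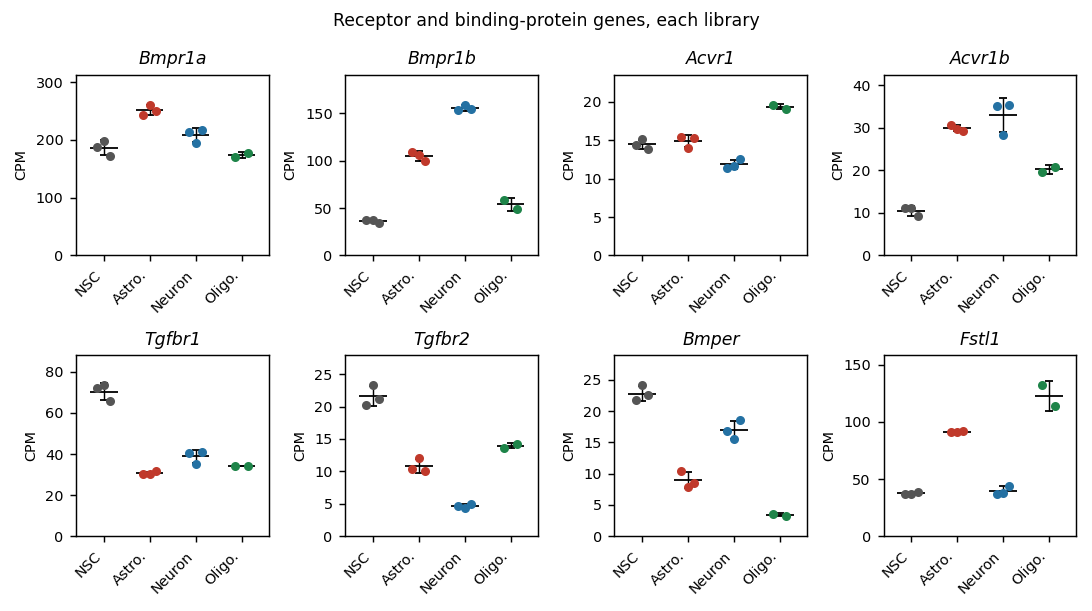
CPM of 6 receptor genes and 2 genes of secreted binding proteins in each library (points) of the 4 groups, with mean (line) and SD (bars); each panel has its own axis from 0. Bmpr1b is highest in Neuron, Tgfbr1 and Tgfbr2 are highest in NSC, and Bmper and Fstl1 run in opposite directions from Neuron to Oligodendrocyte.

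Most receptor-activated Smad genes changed by less than 2-fold, and Smad9 was the exception. Smad5 fell in Neuron and Oligodendrocyte (-0.48 and -0.77, adjusted p 8.48e-06 and 2.29e-07) from 238.4 ± 10.4 CPM in NSC (SD, n = 3). Smad3 fell in Astrocyte (-0.47, adjusted p 2.02e-05) and rose in Neuron (0.28, adjusted p 0.00167), from 36.7 ± 0.894 CPM in NSC (SD, n = 3). Smad2 fell in all 3 media (-0.59, -0.81 and -0.50, adjusted p 5.62e-06, 2.31e-07 and 9.89e-05). Smad1 was called higher in all 3 media by 0.16 to 0.44, and the calls in Astrocyte and Neuron were lost with median-of-ratios scaling (adjusted p 0.528 and 0.0972). The Neuron call (adjusted p 0.0473) was lost in most of the alternatives tried. Smad4 passed in no comparison with NSC, at 72.52 to 92.82 CPM over the 11 libraries. Under median-of-ratios scaling it was called lower in Astrocyte and Oligodendrocyte (-0.22 and -0.30, adjusted p 0.00429 and 0.000931). It was called higher in Neuron with quantile normalization (0.20, adjusted p 0.00587) and without Neuron replicate 2 (0.20, adjusted p 0.00414), so its direction depended on the scaling and on that library.

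Smad9 (ENSMUSG00000027796, mm9 chromosome 3, 54559504 to 54605179, plus strand), formerly called Smad8 and the third Smad of the BMP branch, read 1.71, 1.39 and 1.33 CPM in NSC. It reached 20.31, 21.54 and 19.04 in Astrocyte, 9.38, 10.65 and 10.58 in Neuron, and 7.34 and 7.02 in Oligodendrocyte. The groups formed 4 separate levels. Astrocyte had 13.7 times the NSC mean (log2 fold change 3.11, SE 0.087, adjusted p 7.13e-13), Neuron 6.91 times (2.18, SE 0.087, adjusted p 2.88e-11) and Oligodendrocyte 4.86 times (1.73, SE 0.097, adjusted p 1.27e-09). Astrocyte also exceeded Neuron (0.93, SE 0.087, adjusted p 8.19e-07).

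Smad6, Smad7 and Skil, the 3 genes taken by symbol that restrain the pathway inside the cell, were called higher in each medium than in NSC. The smallest of these rises, Skil in Astrocyte, was lost with median-of-ratios scaling (0.15, adjusted p 0.104). That of Smad6 in Neuron was lost with quantile normalization (0.32, adjusted p 0.0642). Over all genes, 48%, 43.5% and 48.1% were called higher in Astrocyte, Neuron and Oligodendrocyte than in NSC. Intracellular regulators outside the symbol rule, given below, went both ways. Smad6, which blocks mainly BMP signals, averaged 0.153 ± 0.101 CPM for NSC, 2.77 ± 0.271 for Astrocyte and 0.927 ± 0.351 for Neuron (SD, n = 3), with 1.74 ± 0.559 for Oligodendrocyte (SD, n = 2). Smad7, which blocks both branches, averaged 1.23 ± 0.195, 3.96 ± 0.22 and 7.32 ± 0.255 CPM (SD, n = 3) and 9.32 ± 0.516 CPM (SD, n = 2) in the same order. In Astrocyte vs Neuron the 2 genes differed in opposite directions: Astrocyte was above Neuron for Smad6 (0.98, SE 0.138, adjusted p 3.52e-05) and below it for Smad7 (-0.75, SE 0.085, adjusted p 5.38e-06). In Oligodendrocyte vs Neuron both were called higher, Smad7 not with median-of-ratios scaling (0.17, adjusted p 0.123).

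Skil (ENSMUSG00000027660, chromosome 3, 30993980 to 31021499, plus strand), whose product SnoN represses Smad complexes and is itself a TGF-beta target, read 25.01, 26.06 and 23.45 CPM in NSC and 35.49, 30.4 and 27.11 in Astrocyte. It was higher in Neuron, at 57.23, 51.74 and 60.71, and in Oligodendrocyte, at 55.91 and 54.26. Neuron and Oligodendrocyte overlapped (-0.03, SE 0.101, adjusted p 0.775), and both were about 2-fold above NSC (1.15 and 1.12, adjusted p 3.73e-08 and 1.95e-07). Skil and Smad7 were thus both lower in Astrocyte than in Neuron and Oligodendrocyte (Skil -0.85 against Neuron, SE 0.090, adjusted p 2.72e-06).

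The Id genes, read as a group of BMP targets, did not move together. Id2 and Id4 rose in every medium, Id3 fell in every medium, and Id1 rose in Astrocyte and Oligodendrocyte, the latter not with quantile normalization (0.26, adjusted p 0.0638). In Astrocyte vs Neuron, however, all 4 were called higher, as were 40.3% of all genes.

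Id4 (ENSMUSG00000021379, mm9 chromosome 13, 48356796 to 48359405, plus strand) read 2.63, 3.35 and 2.93 CPM in NSC. It read 217.5, 218.6 and 237.0 in Astrocyte, 154.6, 154.1 and 157.0 in Neuron, and 156.1 and 129.1 in Oligodendrocyte. On the log2(CPM + 1) scale this was the largest difference from NSC of any pathway gene in each medium, a scale that understates genes at a few reads in NSC such as Bmp6 and Bmp4. The day 4 means were 75.5, 52.3 and 48 times that of NSC (log2 fold changes 5.83, 5.30 and 5.17; SE 0.081, 0.081 and 0.090; adjusted p 2.62e-15, 6.26e-15 and 4.53e-14). Neuron and Oligodendrocyte overlapped, and Astrocyte was above both. The model overlaps A330033J07Rik on the opposite strand, which had at most 3.07 CPM as a group mean.

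Id2 (ENSMUSG00000020644, chromosome 12, 25778666 to 25780957, minus strand) read 33.8, 34.16 and 36.19 CPM in NSC, 208.5, 223.3 and 248.7 in Astrocyte, 113.5, 119.3 and 108.8 in Neuron, and 120.2 and 103.6 in Oligodendrocyte. Again Astrocyte stood alone at the top and Neuron and Oligodendrocyte overlapped (-0.03, SE 0.085, adjusted p 0.782). Id2 rose by 2.67 in Astrocyte (SE 0.076, adjusted p 8.12e-13), by 1.68 in Neuron (SE 0.076, adjusted p 9.86e-11) and by 1.66 in Oligodendrocyte (SE 0.085, adjusted p 4.72e-10).

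Id3 (ENSMUSG00000007872, chromosome 4, 135699412 to 135701670, plus strand) was highest in NSC, at 74.51, 70.54 and 81.8 CPM. It read 32.51, 31.77 and 42.96 in Astrocyte, 11.24, 10.82 and 10.76 in Neuron, and 21.4 and 22.99 in Oligodendrocyte. Neuron, the lowest group, fell by 2.68 (SE 0.10, adjusted p 1.48e-11), Oligodendrocyte by 1.72 (SE 0.112, adjusted p 6.06e-09) and Astrocyte by 1.07 (SE 0.10, adjusted p 2.34e-07). Among the day 4 groups Astrocyte had 3.27 times the Neuron mean (1.61, SE 0.10, adjusted p 1.87e-08), and Oligodendrocyte 2.03 times (0.96, SE 0.112, adjusted p 5.95e-06).

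Id1 (ENSMUSG00000042745, chromosome 2, 152561987 to 152563146, plus strand) had lower values throughout: 6.94, 6.27 and 7.75 CPM in NSC, 12.07, 12.36 and 14.35 in Astrocyte, 5.58, 6.23 and 6.1 in Neuron, and 10.22 and 12.35 in Oligodendrocyte. Astrocyte and Oligodendrocyte overlapped and lay above the other groups. Astrocyte was above Neuron by 1.00 (SE 0.099, adjusted p 1.5e-06), Oligodendrocyte above Neuron by 0.81 (SE 0.111, adjusted p 2.47e-05), and Neuron vs NSC was not called (-0.19, SE 0.099, adjusted p 0.0859). With median-of-ratios scaling and with quantile normalization Neuron was called lower than NSC (-0.24 and -0.37, adjusted p 0.0481 and 0.00546).

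Id1 and Id3 thus shared their order of the day 4 media (Astrocyte, then Oligodendrocyte, then Neuron), although Astrocyte and Oligodendrocyte did not differ detectably for Id1 (-0.18, SE 0.111, adjusted p 0.185). Bmp6 had the same order, with the small step from Astrocyte to Oligodendrocyte given above, whereas Bmp4 had the reverse order. The summed astrocyte markers put Neuron above Oligodendrocyte, unlike Id1, Id3 and Bmp6, and like Smad9 and Bmpr1b. The 5 oligodendrocyte precursor markers summed to 434.5 to 478.4 CPM in Astrocyte, 964 to 1179 in Neuron and 757.6 to 812 in Oligodendrocyte. Bmp4 had that order among the day 4 media. In NSC, where Bmp4 was lowest, the same markers summed to 1784 to 1913 CPM. Olig1 and Olig2, with NSC means of 1019 and 732.9 CPM, made up most of that. Against NSC, 2 of the 5 (Pdgfra and Sox10) were called higher in each medium, as Bmp4 was. The other 3 (Cspg4, Olig1 and Olig2) were called lower in each medium. The part of astrocyte or precursor content in these differences was not tested.

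**Figure D4:**
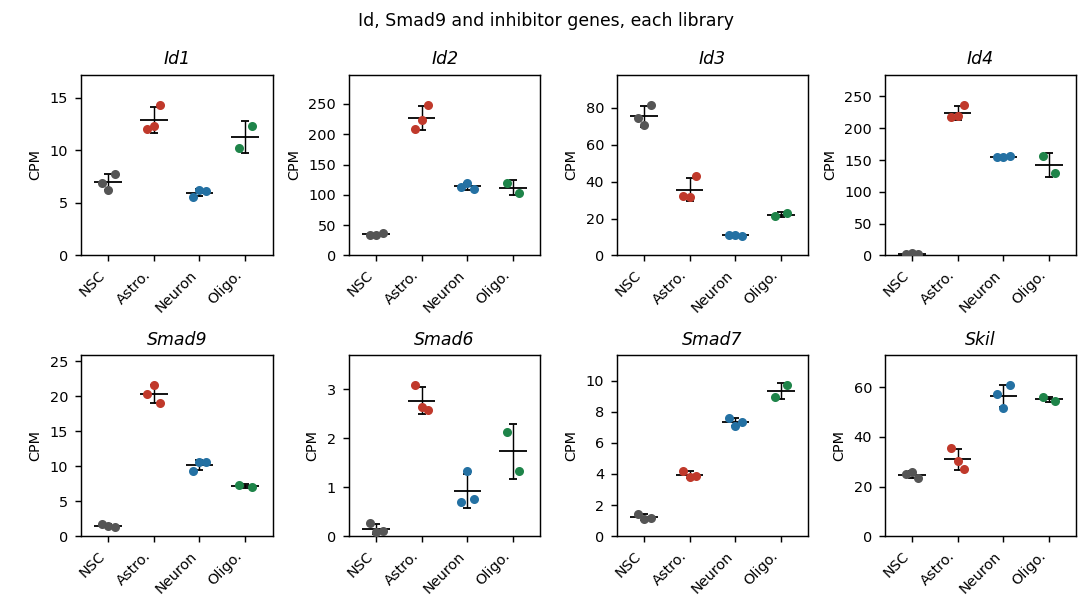
CPM of the 4 Id genes, Smad9, Smad6, Smad7 and Skil in each library (points) of the 4 groups, with mean (line) and SD (bars); each panel has its own axis from 0. Id2 and Id4 are above NSC in all day 4 libraries, Id3 is below it, and Smad7 and Skil are lower in Astrocyte than in Neuron or Oligodendrocyte.

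The promoter sequences of Id2, Id3, Id4 and Smad9 are shown because GGCGCC is a GC-rich element bound by Smad1 and Smad5 at BMP targets. The RefSeq table (build GRCm38.p6) matched 48 of the 68 genes by symbol, with 59 windows that run from 250 bases before to 50 bases after a gene's start. Its coordinates are of another build than the mm9 positions above. Shown 5′ to 3′ on the gene's strand are the 250 bases before the start, with GGCGCC in capitals: Id2 at chr12:25096093-25096342 (minus strand), Id3 at chr4:136143572-136143821, Id4 at chr13:48260866-48261115 and Smad9 at chr3:54755332-54755581 (plus strand).
Id2: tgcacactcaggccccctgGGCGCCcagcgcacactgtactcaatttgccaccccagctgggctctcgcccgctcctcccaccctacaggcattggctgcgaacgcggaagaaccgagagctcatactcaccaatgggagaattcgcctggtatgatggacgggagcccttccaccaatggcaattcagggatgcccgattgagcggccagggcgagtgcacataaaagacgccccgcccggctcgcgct
Id4: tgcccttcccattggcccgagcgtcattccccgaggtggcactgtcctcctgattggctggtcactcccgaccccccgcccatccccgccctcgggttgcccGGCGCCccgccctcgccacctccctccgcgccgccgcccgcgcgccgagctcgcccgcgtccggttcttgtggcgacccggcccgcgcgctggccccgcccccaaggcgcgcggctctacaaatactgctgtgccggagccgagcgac
Smad9: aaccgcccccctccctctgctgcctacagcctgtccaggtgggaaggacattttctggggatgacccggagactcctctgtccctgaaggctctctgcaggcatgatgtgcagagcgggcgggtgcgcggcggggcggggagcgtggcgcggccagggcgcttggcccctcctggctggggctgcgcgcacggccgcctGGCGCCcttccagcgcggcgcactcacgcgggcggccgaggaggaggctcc
Id3: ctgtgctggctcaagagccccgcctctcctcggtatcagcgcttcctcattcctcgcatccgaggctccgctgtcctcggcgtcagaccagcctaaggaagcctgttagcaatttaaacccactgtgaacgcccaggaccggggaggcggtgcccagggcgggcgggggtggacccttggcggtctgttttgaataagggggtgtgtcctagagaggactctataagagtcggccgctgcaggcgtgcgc

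GGCGCC, which reads the same on both strands, begins 231 bases before the start of Id2, 148 before that of Id4 and 51 before that of Smad9, genes that rose in all 3 media. These letters are not in the Id3 window. In all, 16 of the 59 windows of pathway genes held it (27.1%), against 11.9% of all 32851 windows, and the pathway windows had a median of 63.6% G and C, against 52.4% over all windows. The 16 windows belonged to 14 of the 48 genes, so some genes counted more than once. Repeats of the same window were dropped for the pathway genes but not for all windows. GGCGCC was also in the windows of Tgfbr1 and Ltbp4, which fell, so the letters alone did not sort the genes by direction. The palindrome GTCTAGAC, a Smad-binding element, was in 1 pathway window and in 0.213% of all windows. That window was the one of Smad6, where it begins 4 bases before the start. A 30-base excerpt that spans the start is shown (chr9:64022045-64022074, minus strand), with the palindrome in capitals:
Smad6: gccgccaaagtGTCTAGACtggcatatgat
A match is a string of letters and shows no binding.

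Pathway genes outside the symbol rule came from 5 lists. Of 8 tested TGF-beta and activin targets and matrix genes (10 listed), 6 were higher and 1 lower in Astrocyte vs NSC (background 48% higher and 35.6% lower), 4 and 2 in Neuron vs NSC (43.5% and 39.6%), and 7 and 1 in Oligodendrocyte vs NSC (48.1% and 32.2%). Compared with Neuron, 7 were higher and 1 lower both in Astrocyte (40.3% and 22%) and in Oligodendrocyte (43.9% and 23.6%), with median log2 fold changes of 0.81 and 1.26 beside 0.10 and 0.15 over all genes. Thbs1, whose product thrombospondin-1 activates latent TGF-beta, read 66.67, 64.86 and 76.26 CPM in Astrocyte and 91.4 and 104.2 in Oligodendrocyte. It read only 4.99, 7.61 and 6.72 in Neuron and 6.08, 6.88 and 5 in NSC. Its log2 fold change over Neuron was 3.25 in Astrocyte (SE 0.131, adjusted p 4.06e-10) and 3.74 in Oligodendrocyte (SE 0.146, adjusted p 2.3e-10). Ctgf, a matricellular TGF-beta target, was under 1 CPM in NSC and at 26.38 to 74.8 CPM in the day 4 libraries (log2 fold changes 4.89, 4.34 and 5.23, adjusted p 8.39e-11, 3.24e-10 and 1.82e-10). Col4a2, a basement membrane collagen, was highest in Oligodendrocyte, at 31 and 35 CPM, against 9.62, 8.66 and 9.85 in Neuron (1.71, SE 0.110, adjusted p 2.12e-08). Acta2 and Pdgfrb of the mesenchymal markers were also higher in Astrocyte than in NSC, and their part in these levels was not tested.

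Of 6 tested BMP targets other than the Id genes (10 listed), 5 were higher and 1 lower in Astrocyte vs NSC (background 48% and 35.6%) and in Oligodendrocyte vs NSC (48.1% and 32.2%), and 4 and 1 in Neuron vs NSC (43.5% and 39.6%). Compared with Neuron, 4 were higher and 1 lower in Astrocyte (40.3% and 22%), and 2 higher and 3 lower in Oligodendrocyte (43.9% and 23.6%). The medians of these log2 fold changes were 0.35 and -0.32, beside 0.10 and 0.15 over all genes. Hey1, a transcriptional repressor also driven by Notch, read 28.13, 29.79 and 30.87 CPM in NSC, 137.2, 133.6 and 135.3 in Astrocyte, 47.12, 50.8 and 49.87 in Neuron, and 136.7 and 124.7 in Oligodendrocyte. Astrocyte and Oligodendrocyte overlapped, and both were above Neuron (1.44 and 1.39, adjusted p 4.65e-10 and 1.3e-09). Hes1, its relative, fell from 20.23 CPM as the NSC mean by 1.93, 1.04 and 1.55 in Astrocyte, Neuron and Oligodendrocyte (adjusted p 2.69e-10, 2.22e-07 and 1.24e-08). Zfp423, a partner of Smads at BMP targets, was highest in Astrocyte (0.93 over NSC, SE 0.082, adjusted p 1.19e-07).

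Of 15 tested extracellular regulators (26 listed), 9 were higher and 6 lower in Astrocyte vs NSC and in Neuron vs NSC, and 7 and 5 in Oligodendrocyte vs NSC, where 83.6%, 83.1% and 80.2% of all genes were called in either direction. Nbl1, a BMP antagonist of the DAN family, stood at 24.48, 26.08 and 26.84 CPM in NSC, 202.1, 175.3 and 178.4 in Astrocyte, and 200.2, 254.5 and 216.3 in Neuron. Oligodendrocyte had only 48.77 and 41.4 CPM, 2.28 below Neuron (log2 fold change -2.28, SE 0.103, adjusted p 7.84e-10). Vwc2, which encodes the BMP antagonist brorin, read 11.03, 10.42 and 10.06 CPM in NSC and 3.65, 2.42 and 3.14 in Astrocyte. It read 2.21, 1.75 and 1.59 CPM in Neuron and 17.29 and 19.14 in Oligodendrocyte. Oligodendrocyte was thus above Neuron (log2 fold change 2.76, SE 0.129, adjusted p 1.1e-09), with NSC between them. Fbn2, the fibrillin-2 gene, fell from 152.2, 156 and 127 CPM in NSC to 4.49 to 36.08 CPM in the day 4 libraries (log2 fold changes -4.54, -2.37 and -3.50, adjusted p 2.54e-11, 2.73e-08 and 1.68e-09).

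Of 6 tested co-receptors and related genes (11 listed), 4 were higher and 2 lower in each comparison with NSC, in which 83.6%, 83.1% and 80.2% of all genes were called. The repulsive guidance molecules Rgma and Rgmb, which are BMP co-receptors, and their receptor neogenin (Neo1) rose in all 3 media. Rgma went from 58.36 to 63.13 CPM in the NSC libraries to 141 to 197.1 CPM at day 4 (1.64, 1.57 and 1.30, adjusted p 2.28e-10, 3.85e-10 and 1.12e-08). Of 20 tested intracellular regulators (21 listed), 5 were higher and 13 lower in Astrocyte vs NSC (background 48% and 35.6%), 5 and 9 in Neuron vs NSC (43.5% and 39.6%), and 8 and 7 in Oligodendrocyte vs NSC (48.1% and 32.2%). The Smad corepressor genes Tgif1 and Tgif2 went opposite ways. Tgif1 rose in all 3 media (1.86, 1.39 and 1.35, adjusted p 7.92e-10, 1.97e-08 and 9.74e-08), and Tgif2 fell from 50.79, 52.25 and 58.4 CPM in NSC to 16.26 to 16.9 in Astrocyte, 15.46 to 16.85 in Neuron, and 6.14 and 5.82 in Oligodendrocyte. Zeb2, a Smad-interacting repressor, rose in all 3 media and was highest in Neuron (1.42 over NSC, SE 0.093, adjusted p 5.7e-09).

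The media of Oligodendrocyte and Neuron differ by T3, and in this comparison 6 pathway genes were at least 2-fold higher and 2 lower (8.96% and 3.58% of all genes). Higher were Bmp6, Tgfbi, Fstl1, Gdf15, Tgfbr2 and Ltbp1, and lower were Bmper and Bmpr1b. Serum-containing Astrocyte medium against Neuron medium gave 4 at least 2-fold higher (Bmp6, Id3, Fstl1 and Tgfbr2) and 1 lower (Bmp4), against 6.39% and 2.95% of all genes, although 9 in all passed 2-fold when Neuron replicate 2 was left out. Bmp6, Fstl1 and Tgfbr2 were in both sets of higher genes. The sets share the Neuron libraries. The Astrocyte and Neuron media also differ in their base and in their supplement (N-2 or B-27), so the part of serum cannot be told apart. In Oligodendrocyte vs Astrocyte, 8 pathway genes were at least 2-fold higher and 3 lower, against 4.53% and 3.41% of all genes. Higher were Bmp2, Bmp4, Bmp7, Gdf15, Ltbp1, Ltbp4, Tgfbi and Smad7, and lower were Bmper, Id2 and Smad9.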

How the data were processed

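Polyadenylated RNA of 11 libraries was made into stranded libraries (TruSeq Stranded mRNA) and sequenced on an Illumina instrument, per the labels' protocols. The submitters' processing notes name bcl2fastq 1.8.4, TopHat2 2.0.8, HTSeq 0.6.1, edgeR 3.2.4, R 3.0.0 and HOMER with build NCBIM37 (mm9). The sources used here do not give their settings, the annotation or the use of strand in counting. The values used are CPM as the authors deposited them, rounded to 2 decimals, with the gene coordinates of the same table.

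CPM are not counts, so log2(CPM + 1) was tested with limma 3.58.1 in R 4.3.3 (1 mean per group, all 11 libraries, eBayes with a trend, two-sided, Benjamini-Hochberg over the 13342 genes that reached 1 CPM in 2 or more libraries). Fold changes on this scale understate those of low genes. Calls needed an adjusted p under 0.05, and 2-fold calls also a difference of at least 1. The script was tested on simulated data. Low values lay on steps of 1 read, which gave the depth (49.3 to 66.2 M reads). Only 24.4% to 61.5% of values came within 0.1 read of a whole number, so no count test was run.

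The members and lists were chosen with earlier results of these data known, and some items are not reported here. Values in every library are given for members with a group mean of at least 10 CPM and a 2-fold call in any of 6 comparisons, and for Id1 to Id4. Of each other list, up to 3 called genes with the largest change and a group mean of at least 10 CPM are named. Replicate numbers were checked for pairing: deviations of same-numbered libraries correlated at -0.505 to 0.415 (6 of 15 pairs over 0.1, median 0.0349). Those of differently numbered libraries correlated at -0.536 to 0.541 (median -0.00721). No pairing was used in the main fit, although this check cannot exclude it. Alternatives were other pseudocounts, filters, scalings and variance models, fits of only the groups compared, a replicate block, and leaving out each library.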

Additional observations from a re-analysis of the deposited data

Results flagged for a closer look

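For 4 genes, 2 media were called in opposite directions against NSC, and the direct comparison of the media tested the difference. These comparisons share the NSC libraries. Tgfb1 was lower in Astrocyte (-0.26) and higher in Neuron (0.58) than in NSC on the log2(CPM + 1) scale, a difference of -0.84 (adjusted p 1.6e-06). It was also lower in Oligodendrocyte (-0.32), which differed from Neuron by -0.90 (adjusted p 2.09e-06). With quantile normalization the rise of Tgfb1 in Neuron was 0.10 (adjusted p 0.31). Smad3 was lower in Astrocyte (-0.47) and higher in Neuron (0.28), a difference of -0.75 (adjusted p 5.94e-07), and the 3 Neuron libraries (46.63, 41.05 and 47.04 CPM) all lay above the 3 Astrocyte libraries (26.78, 26.78 and 25.22 CPM). Gdf9 was lower in Oligodendrocyte (-0.22, adjusted p 0.0417) and higher in Neuron (0.67), a difference of -0.89 (adjusted p 1.93e-06). Its fall in Oligodendrocyte was lost with the replicate number as a block. Acvr1 was higher in Oligodendrocyte (0.40) and lower in Neuron (-0.27), a difference of 0.66 (adjusted p 6.63e-06).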

How the results depend on the processing

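Every alternative named in the methods was run. Of 219 calls of pathway genes over 6 comparisons, 176 were lost in none of the 20 alternatives that tested them and 43 in at least 1. Median-of-ratios scaling lost 13 and gained 9, and quantile normalization lost 19 and gained 19. Of 2280 values for the genes given in every library, 2230 kept direction and side of the threshold, 28 lost it, 13 passed it and 9 changed sign. With a pseudocount of 5, the numbers of pathway genes called at 2-fold were 13, 12 and 10 in Astrocyte, Neuron and Oligodendrocyte vs NSC, and 3 (Astrocyte against Neuron), 4 (Oligodendrocyte against Neuron) and 1 (Oligodendrocyte against Astrocyte) between media, since a larger pseudocount shrinks the differences. The 5 in Astrocyte vs Neuron became 12 with a pseudocount of 0.1, 8 with quantile normalization and 9 without Neuron replicate 2; the cause was not tested.

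Leaving out 1 library at a time gave 35 to 38, 34 to 39, 36 to 40, 32 to 38, 30 to 35 and 29 to 36 calls, first for Astrocyte, Neuron and Oligodendrocyte against NSC, then for Astrocyte against Neuron, Oligodendrocyte against Neuron and Oligodendrocyte against Astrocyte. At 2-fold it gave 22 to 23, 19 to 19, 19 to 22, 5 to 9, 8 to 9 and 8 to 12. With 1 Oligodendrocyte library left, its spread was assumed to be like that of the other groups.

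Among the genes given in every library, sign changes came in Oligodendrocyte vs Neuron and Neuron vs NSC. Gdf11 in the first of these was -0.15 with median-of-ratios scaling, -0.16 with quantile normalization (adjusted p 0.0389), -0.06 without Neuron replicate 2 and -0.05 without Oligodendrocyte replicate 1, and over all single libraries left out it ranged from -0.06 to 0.06. In the same comparison Id2 was 0.01 without Neuron replicate 2 and 0.08 without Oligodendrocyte replicate 2 (range -0.13 to 0.08), Skil was 0.02 without Neuron replicate 3 (range -0.10 to 0.02), and Id4 was 0.01 without Oligodendrocyte replicate 2 (range -0.26 to 0.01). Fstl1 in Neuron vs NSC was -0.01 without Neuron replicate 3 (range -0.01 to 0.11). Among the other pathway genes, quantile normalization turned Chrd in Astrocyte vs NSC from a call higher (0.30) to a call lower (-0.32), Gdf9 there from 0.02 to -0.65 (adjusted p 9.23e-06), and Tgfbr3 in Oligodendrocyte vs NSC from 0.55 to -0.12 (adjusted p 0.39). The cause was not tested.

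With the replicate number as a block, 37, 34, 37, 36, 33 and 34 pathway genes were called in the same order of comparisons, 8 calls fewer and none gained. In a paired reading of the numbers, 5 of 11 libraries correlated best with a library of their own number. Deviations were taken within each small group, which ties these correlations to each other. The check therefore cannot exclude that same-numbered libraries shared a culture or litter. Depth limits the genes at a few reads in NSC, such as Bmp4 and Bmp6, whose differences from NSC depend on the pseudocount.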

Other observations

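Some ligand and binding protein genes that did not pass the filter were unevenly spread over the groups at low values. Gdf10 was at 0.76 and 0.8 CPM in Oligodendrocyte, at 0 in the 3 NSC libraries and at most 0.36 CPM in the other day 4 libraries. Fstl3 was at 1 and 0.93 CPM in Oligodendrocyte and 0.81, 0.73 and 0.71 CPM in Astrocyte, and at 0.03, 0 and 0 CPM in NSC. Bmp3 read 0.73, 0.34 and 1.12 CPM in Neuron and at most 0.24 CPM elsewhere. Inhba read 0.69, 0.39 and 0.29 CPM in Astrocyte and was at 0 in NSC. No test of these values is given.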
